A study of Mus musculus with 10 samples.

Results

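The genes described here are 8 genes by which regulatory T cells are commonly recognised: Foxp3, Ikzf2, Ctla4, Il2ra, Tnfrsf4, Tnfrsf18, Izumo1r and Lrrc32. They were chosen by name, and all 8 were found among the 56893 genes of the deposited count table. The study sequenced polyadenylated RNA of primary splenic T cells and B cells from mice, with CRISPR interference directed at promoters of Pou2f1, the gene of the transcription factor Oct-1. In this method a guide RNA brings a catalytically dead Cas9 to a promoter. The 5 groups were T cells with sgRNA1 (genotype label sgRNA-P1, directed at the P1 promoter), mock T cells, B cells with sgRNA1 (sgRNA-P1), B cells with sgRNA2 (sgRNA-P2, directed at the P2 promoter) and mock B cells. Mouse strain and age, the selection of the cells, the source of the dead Cas9 and the duration of the treatment are not given in the labels. Within a group, the 2 columns were closer to each other than sampling noise allows, so their sum was treated as 1 sample, and a comparison of 2 groups has no replicate check. Brackets give 95% intervals, which cover counting error only.

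Regulatory T cells are CD4+ T cells that restrain other lymphocytes. The transcription factor FOXP3 is central to their identity, and their surface molecules act on signals that other cells use: CD25 binds interleukin-2, CTLA-4 takes costimulatory ligands from antigen-presenting cells, and GARP holds latent TGF-beta at the cell surface. Activated conventional T cells also make CD25, CTLA-4, OX40 and GITR, so these molecules are not exclusive to regulatory cells. In spleen the regulatory cells are a minority of CD4+ T cells, and the T cell libraries measure their genes within a mixed population. In such bulk RNA, fewer cells of a type and less RNA per cell cannot be told apart.

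The summed libraries held 39352816 reads in T cells with sgRNA1, 71858511 in mock T cells, 49066261 in B cells with sgRNA1, 28118839 in B cells with sgRNA2 and 33842813 in mock B cells. The T cell libraries held RNA of both the CD4 and the CD8 lineage, at 655 CPM (read counts scaled to a common library size) of Cd4 with sgRNA1 and 656 CPM in mock, and 401 CPM of Cd8a with sgRNA1 and 396 CPM in mock. The targeted gene Pou2f1 was at 66.1 CPM in T cells with sgRNA1 against 138 CPM in mock T cells. In B cells it was at 91.1 CPM with sgRNA1 and 86.5 CPM with sgRNA2, against 157 CPM in mock B cells.

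In short, all 8 genes were expressed in both T cell libraries at 26.2 to 179.8 CPM and were at 6.33 CPM or less in every B cell library. The guide was accompanied by differences of at most 0.16 on the log2 scale in T cells. Among B cells, Foxp3 had more reads with either guide than in the single mock library, which held 5. These levels were under 1 CPM, below the 5 CPM needed for a call.

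The transcription factor genes come first. Foxp3 encodes the forkhead factor that defines the lineage and lies on the plus strand of chromosome X, from 7439883 to 7461484 in the coordinates of the deposited table (mm39 per the submitters' processing notes), with 18 merged exon blocks. It was at 91.0 CPM [86.9 to 95.3] in T cells with sgRNA1 and 97.2 CPM [94.1 to 100.5] in mock T cells. In B cells it had 33 reads with sgRNA1, 27 with sgRNA2 and 5 in mock, or 0.685 CPM [0.411 to 1.13], 0.960 CPM [0.544 to 1.67] and 0.148 CPM [0.0366 to 0.518]. Both T cell libraries were far above all B cell libraries, and mock B cells were the lowest.

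Exon bases of Foxp3 are partly shared with other genes, 1443 of 4577 bases or 31.5%. Reads in such bases appear in no gene of the table, so Foxp3 was measured over its other 3134 bases. One of the overlapping genes is Flicr, a noncoding RNA gene of the same strand that shares 853 bases with it. Flicr was at 4.08 CPM with sgRNA1 and 4.08 CPM in mock T cells, and at 1.02 CPM with sgRNA1, 0.818 CPM with sgRNA2 and 0.591 CPM in mock B cells.

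Ikzf2 encodes Helios, an Ikaros family zinc finger factor of regulatory T cells (chromosome 1, 69570373 to 69726404, minus strand). It was at 162 CPM [157 to 168] in T cells with sgRNA1 and 159.5 CPM [155 to 164] in mock T cells. In B cells it had 5 reads with sgRNA1, 3 with sgRNA2 and none in mock, where 3 reads would be 0.0887 CPM. Of the 8 genes it had the fewest reads in each B cell library.

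The receptors of costimulation and of interleukin-2 follow. Ctla4 encodes the inhibitory receptor that competes with CD28 for CD80 and CD86 (chromosome 1, 60926159 to 60954991, plus strand). It was at 179.8 CPM [174 to 186] in T cells with sgRNA1 and 172 CPM [167 to 176] in mock T cells, and at 3.76 CPM [3.04 to 4.64] with sgRNA1, 3.98 CPM [3.01 to 5.17] with sgRNA2 and 5.38 CPM [4.33 to 6.61] in mock B cells. Mock B cells were the highest of the B cell libraries, with intervals that overlap those of both guides.

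Il2ra encodes CD25, the alpha chain that gives the interleukin-2 receptor its high affinity (chromosome 2, 11647618 to 11698004, plus strand). It was at 117 CPM [112 to 121] in T cells with sgRNA1 and 113 CPM [109.9 to 117] in mock T cells, and at 4.56 CPM with sgRNA1, 3.66 CPM with sgRNA2 and 3.90 CPM in mock B cells. The T cell libraries overlapped in their counting intervals, as did the B cell libraries.

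Tnfrsf4 and Tnfrsf18 encode OX40 and GITR, costimulatory receptors of the TNF receptor superfamily. They are neighbours on the plus strand of chromosome 4, from 156098300 to 156101069 and from 156110621 to 156113352, with 9.55 kb between them. Tnfrsf4 was at 31.8 CPM [29.4 to 34.4] in T cells with sgRNA1 and 35.6 CPM [33.7 to 37.6] in mock T cells, and at 4.32 CPM with sgRNA1, 4.05 CPM with sgRNA2 and 4.35 CPM in mock B cells. Tnfrsf18 was at 26.2 CPM [24.0 to 28.6] in T cells with sgRNA1 and 26.9 CPM [25.2 to 28.6] in mock T cells, and at 5.71 CPM [4.81 to 6.77] with sgRNA1, 6.33 CPM [5.08 to 7.79] with sgRNA2 and 5.32 CPM [4.28 to 6.54] in mock B cells. These were the 2 members in which B cells came closest to T cells. Of the 1524 exon bases of Tnfrsf18, 414 are shared with Gm16008 of the minus strand and were not counted.

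Izumo1r encodes folate receptor 4, also called JUNO, a surface protein of regulatory and follicular helper T cells and of oocytes (chromosome 9, 14797110 to 14815245, minus strand). It was at 135 CPM [130.3 to 141] in T cells with sgRNA1 and 145 CPM [141 to 149] in mock T cells, and at 2.18 CPM with sgRNA1, 2.52 CPM with sgRNA2 and 1.92 CPM in mock B cells. Lrrc32 encodes GARP, the anchor of latent TGF-beta (chromosome 7, 98138490 to 98151388, plus strand). It was at 49.9 CPM [46.9 to 53.1] in T cells with sgRNA1 and 52.4 CPM [50.1 to 54.8] in mock T cells, and at 0.747 CPM with sgRNA1, 1.17 CPM with sgRNA2 and 1.09 CPM in mock B cells. GARP is also known on platelets and endothelium. Of 6 platelet and megakaryocyte markers, 5 had no read in either T cell library, Pf4 among them, and the integrin gene Itga2b was at 6.46 CPM with sgRNA1 and 5.55 CPM in mock. Of 6 endothelial markers, Pecam1, which T cells also express, was at 229 CPM with sgRNA1 and 237 CPM in mock, and Cdh5 was at 0.701 CPM with sgRNA1 and 0.458 CPM in mock. The part of these cells in the Lrrc32 level was not tested.

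**Figure D1:**
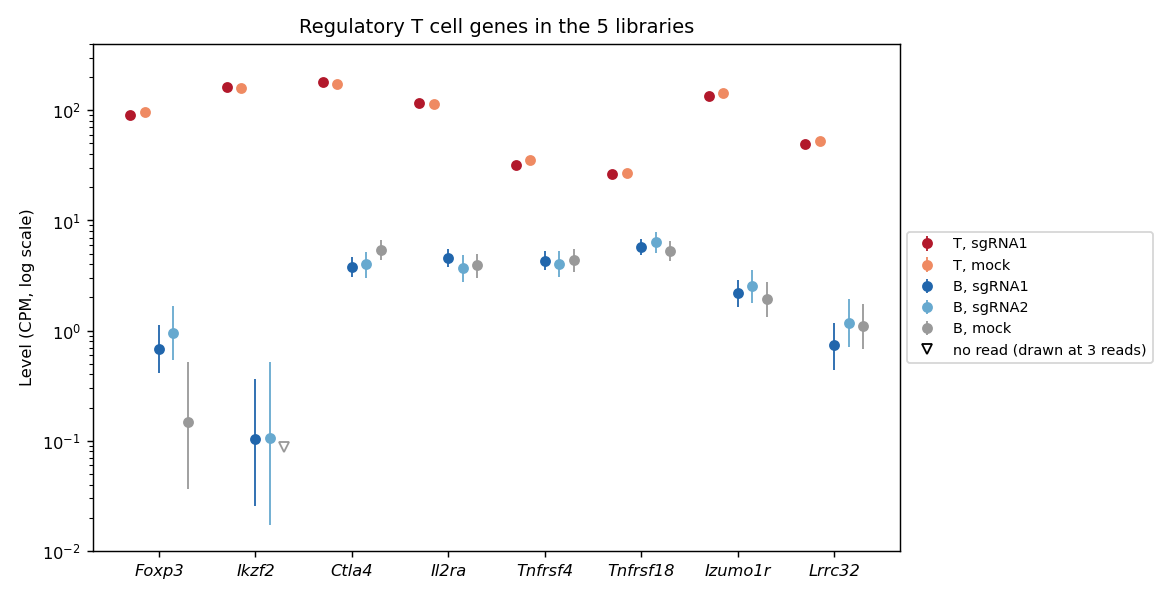
Level of each gene in the 5 libraries, in CPM on a log scale, with 95% counting intervals as bars and an open triangle where there was no read. The points of both T cell libraries lie between 26.2 and 179.8 CPM, above every B cell point, and Foxp3 and Ikzf2 have the lowest B cell points.

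Levels of different genes were compared per kilobase of exon sequence shared with no other gene. In T cells with sgRNA1, Ctla4 was highest at 77.2 CPM per kilobase, followed by Izumo1r at 58.4, Foxp3 at 29.0, Tnfrsf18 at 23.6, Tnfrsf4 at 23.3, Il2ra at 20.4, Ikzf2 at 14.2 and Lrrc32 at 10.7. In mock T cells the values were 73.7 for Ctla4, 62.5 for Izumo1r, 31.0 for Foxp3, 26.1 for Tnfrsf4, 24.2 for Tnfrsf18, 19.9 for Il2ra, 13.9 for Ikzf2 and 11.2 CPM per kilobase for Lrrc32. The order was the same in both libraries except for the neighbours Tnfrsf4 and Tnfrsf18, whose counting intervals overlap in both. With the full exon length, Foxp3 was at 19.9 CPM per kilobase with sgRNA1 and 21.2 in mock, and with sgRNA1 it lay within the interval of Il2ra.

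In mock B cells the order was another one: Tnfrsf18 was highest at 4.79 CPM per kilobase, followed by Tnfrsf4 at 3.18 and Ctla4 at 2.31, while Foxp3 was at 0.0472 and Ikzf2 had no read. The counting intervals of Tnfrsf18 and Tnfrsf4 overlap in mock B cells and in neither guide library. Tnfrsf18 was also the highest in B cells with sgRNA1 at 5.14 CPM per kilobase and with sgRNA2 at 5.70. The ratio of Ctla4 to Foxp3 per kilobase was 2.66 in T cells with sgRNA1 and 2.37 in mock T cells, and that of Izumo1r to Foxp3 was 2.01 in both.

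The promoter windows of the genes, from 250 bases before to 50 after an annotated start, were read from RefSeq sequences of the build GRCm38.p6, whose coordinates differ from those of the deposited table. Such windows were found for 6 of the 8 genes, 7 windows in all since Foxp3 has 2. They were searched on both strands for the octamer ATGCAAAT that Oct-1 binds, for the forkhead core GTAAACA, for TTCNNNGAA, the spacing that STAT5 downstream of the interleukin-2 receptor binds, and for TGTGGT, a core of RUNX factors, which act with FOXP3. The octamer was in none of the 7 windows, against 1.74% of all 32851 windows, and the forkhead core was in none, against 3.65% of all. TTCNNNGAA was in 2 of them, 1 of Foxp3 and that of Tnfrsf18, against 8.30% of all windows, and TGTGGT was in that of Izumo1r, against 16.8% of all. A match is a description of the letters, and a window without one says only that these letters are not in it. Both Foxp3 windows are shown as those of the lineage factor, and those of Tnfrsf18 and Izumo1r for their matches, with matches in capitals.
Foxp3, first window (chrX:7579426-7579725, plus strand): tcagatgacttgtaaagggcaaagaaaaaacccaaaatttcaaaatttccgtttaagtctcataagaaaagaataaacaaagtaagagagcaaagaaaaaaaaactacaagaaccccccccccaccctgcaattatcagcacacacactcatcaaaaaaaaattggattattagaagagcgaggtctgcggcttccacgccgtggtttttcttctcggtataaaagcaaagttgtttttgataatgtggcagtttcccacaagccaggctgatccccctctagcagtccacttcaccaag
Foxp3, other window (chrX:7580233-7580532, plus strand): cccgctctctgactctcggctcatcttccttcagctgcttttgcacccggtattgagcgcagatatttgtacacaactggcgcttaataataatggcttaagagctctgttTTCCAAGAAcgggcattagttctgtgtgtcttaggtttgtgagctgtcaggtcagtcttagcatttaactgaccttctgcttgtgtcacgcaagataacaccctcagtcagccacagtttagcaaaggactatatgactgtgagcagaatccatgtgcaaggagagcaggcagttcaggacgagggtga
Tnfrsf18 (chr4:156026072-156026371, plus strand): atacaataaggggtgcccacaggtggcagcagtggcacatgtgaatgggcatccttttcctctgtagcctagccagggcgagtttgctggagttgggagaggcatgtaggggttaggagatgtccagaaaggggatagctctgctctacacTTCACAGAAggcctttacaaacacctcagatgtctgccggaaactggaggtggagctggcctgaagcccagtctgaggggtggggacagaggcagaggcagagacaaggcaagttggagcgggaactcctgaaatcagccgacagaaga
Izumo1r (chr9:14903718-14904017, minus strand): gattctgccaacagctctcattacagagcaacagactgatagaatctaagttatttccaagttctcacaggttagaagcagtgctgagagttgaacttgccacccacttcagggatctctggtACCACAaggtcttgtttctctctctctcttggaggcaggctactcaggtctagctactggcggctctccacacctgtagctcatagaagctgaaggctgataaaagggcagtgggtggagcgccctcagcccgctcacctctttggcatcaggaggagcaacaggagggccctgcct

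T cells with sgRNA1 were compared with mock T cells, which asks whether the genes of regulatory T cells differed when the P1 promoter of Pou2f1 was targeted. None of the 8 genes was 1.5-fold or more apart in these libraries, where 0.11% of 10007 genes at 5 CPM or more were. 3 members were higher with sgRNA1 and 5 were lower, with log2 fold changes of -0.16 to 0.07 and a median of -0.05. Over all 10007 genes, 58.6% were lower, the median was -0.02 and the quartiles were -0.07 and 0.04.

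Tnfrsf4 differed most, at a ratio of 0.893 [0.812 to 0.984] of T cells with sgRNA1 to mock T cells and a log2 fold change of -0.16 [-0.30 to -0.02]. Of the 10007 genes, 90.7% differed by less than it, 75.8% by less than Izumo1r and 74.4% by less than Foxp3. Izumo1r, at -0.10 [-0.17 to -0.03], and Foxp3, at -0.10 [-0.18 to -0.01], were also lower with an interval that excludes 0. Ctla4 was higher at 0.07 [0.01 to 0.13]. The intervals of Lrrc32 (-0.07 [-0.18 to 0.04]), Tnfrsf18 (-0.04 [-0.19 to 0.12]), Il2ra (0.04 [-0.03 to 0.11]) and Ikzf2 (0.03 [-0.04 to 0.09]) reached 0. For Foxp3 the interval of the ratio, 0.884 to 0.991, covers counting error only, and the spread between separate samples of a group could not be measured. The targeted gene Pou2f1 stood at -1.06 in the same libraries, and 0.02% of the genes were lower than it.

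**Figure D2:**
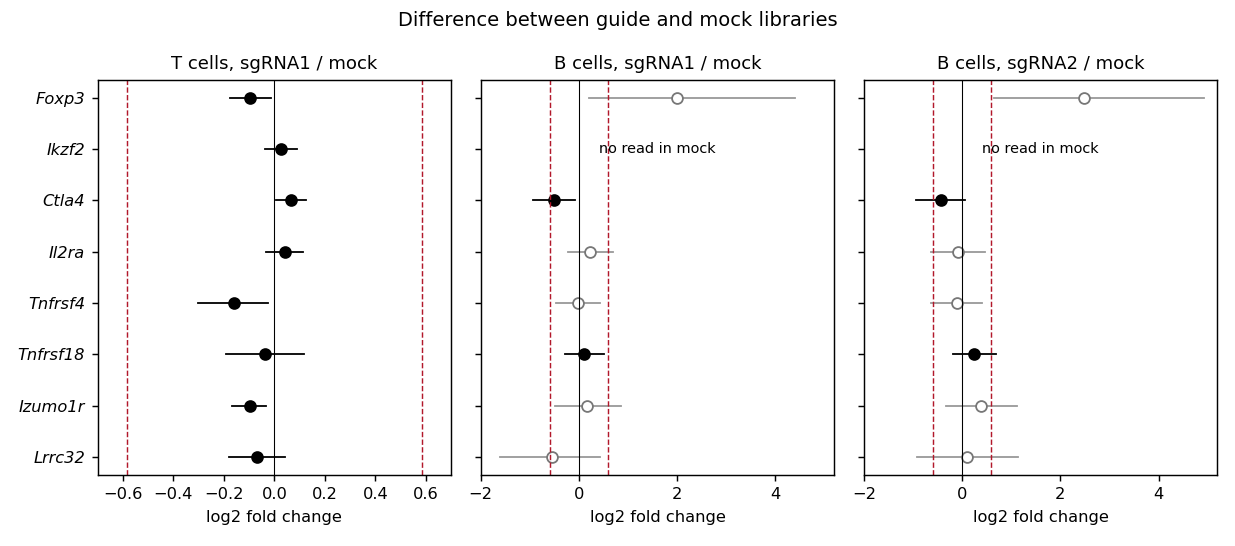
Log2 fold change of each gene between a guide library and its mock, with 95% counting intervals as lines. Filled points reach 5 CPM in 1 of the 2 libraries, open points do not, and dashed lines mark 1.5-fold. In T cells all points lie between -0.16 and 0.07. In B cells Foxp3 is far to the right at 1.99 and 2.49, on few reads.

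Wider lists of related genes were described in the same libraries. Of 30 other genes known to be high in regulatory T cells, 23 reached 5 CPM, 12 of them higher with sgRNA1 and 11 lower, at a median log2 fold change of 0.01, and none was 1.5-fold apart. The ectonucleotidase gene Entpd1, which encodes CD39, was at 6.91 CPM in T cells with sgRNA1 and 8.56 CPM in mock (-0.31 [-0.61 to -0.02]). The chemokine receptor gene Ccr8 was at 4.76 CPM with sgRNA1 and 5.56 CPM in mock, with an interval that reaches 0. The integrin gene Itgae, which encodes CD103, was at 152 CPM with sgRNA1 and 163 CPM in mock (-0.10 [-0.16 to -0.04]), and Tnfrsf1b, the gene of TNF receptor 2, was at 100.2 CPM with sgRNA1 and 106 CPM in mock (-0.08 [-0.16 to -0.00]). Of 13 genes known to be low in regulatory T cells, 10 reached 5 CPM, 2 of them higher and 8 lower, at a median of -0.04. Among these, Tcf7, the gene of the naive T cell factor TCF-1, was at 1632 CPM with sgRNA1 and 1734 CPM in mock (-0.09 [-0.11 to -0.07]).

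The pathways around the members were counted over their genes at 5 CPM or more, beside 58.6% of all genes that were lower with sgRNA1. Of 25 activators and cofactors of Foxp3, 19 were lower and 6 higher, at a median of -0.03, with Nfatc1 (-0.11 [-0.16 to -0.05]) and Nfatc2 (-0.11 [-0.18 to -0.03]), genes of NFAT factors, the furthest apart. In the interleukin-2 receptor pathway, 10 of 12 genes were lower at a median of -0.05, among them the feedback inhibitor gene Socs1 (-0.22 [-0.37 to -0.07]) and Stat5b (-0.08 [-0.13 to -0.04]). Of 12 ligands and adaptors of OX40 and GITR, 10 reached 5 CPM, and all 10 were lower, at a median of -0.05, with Siva1, which encodes a death-domain adaptor, at 5.31 CPM with sgRNA1 and 7.50 CPM in mock (-0.50 [-0.84 to -0.17]), Traf5 at -0.12 [-0.22 to -0.02] and Traf1 at -0.11 [-0.16 to -0.05].

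Of 12 genes of TGF-beta signalling and its anchors, 11 were lower, at a median of -0.06, led by Nrros (-0.12 [-0.21 to -0.03]), which encodes another anchor of latent TGF-beta, and the protease gene Furin (-0.10 [-0.18 to -0.01]). Genes of CD28 and CTLA-4 costimulation had 6 of 10 higher at a median of 0.00, with Cd28 itself at 323.7 CPM with sgRNA1 and 323.6 CPM in mock. None of the genes at 5 CPM in any of these lists was 1.5-fold apart. The T cell activation list had 11 of 14 lower at a median of -0.05, with Fos at 1318 CPM with sgRNA1 and 1401 CPM in mock (-0.09 [-0.11 to -0.07]). The follicular helper list, whose cells share Izumo1r, had 3 of 5 higher at a median of 0.03, and the 13 T cell markers had 6 higher and 7 lower at a median of -0.00. Markers of other cells differed little between the libraries: their summed level was 24.5 CPM with sgRNA1 and 24.99 CPM in mock for 9 B cell markers, 77.8 and 81.0 CPM for 6 NK cell markers and 42.1 and 40.4 CPM for 8 myeloid markers.

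T cells were then set against B cells. All 8 genes were higher in T cells with sgRNA1 than in B cells with sgRNA1 and in mock T cells than in mock B cells, by 1.5-fold or more, where 20% of 10827 and 18.6% of 10804 genes were. Tnfrsf18 was 4.595-fold [3.79 to 5.57] higher with sgRNA1 and 5.06-fold [4.07 to 6.35] in mock, and Tnfrsf4 7.38-fold [5.99 to 9.17] and 8.20-fold [6.44 to 10.4]. Il2ra, at 25.6-fold with sgRNA1 and 29.1-fold in mock, and Ctla4, at 47.9-fold and 31.9-fold, came next. Lrrc32 was 66.9-fold and 47.9-fold higher, and Izumo1r 62.1-fold and 75.4-fold. Foxp3 was 133-fold [80.4 to 222] higher with sgRNA1 and 658-fold [187 to 2660] in mock, where B cells had 5 reads. Ikzf2 was 1566-fold [446 to 6334] higher with sgRNA1, where B cells had 5 reads. In mock, where B cells had no read, its ratio to a floor of 3 reads was 1799-fold. The lower limit of its counting interval in mock was 731-fold.

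With the 2 T cell and 3 B cell libraries as samples and the guide as a term, edgeR's quasi-likelihood test with Benjamini-Hochberg adjustment called all 8 genes higher in T cells, where 32.4% of 17581 genes were called higher. Adjusted p was 2.32e-14 for Foxp3, 1.76e-17 for Ikzf2, 3.19e-16 for Ctla4, 2.34e-16 for Il2ra, 4.12e-13 for Tnfrsf4, 2.76e-11 for Tnfrsf18, 3.99e-17 for Izumo1r and 4.27e-15 for Lrrc32. Each gene was higher in 2 of 2 T cell libraries than in 3 of 3 B cell libraries. These p-values measure the spread between the libraries, which differ in guide. Behind them stood 2 residual degrees of freedom per gene, with the spread shared across genes. The test took the reads undivided, unlike the intervals.

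The reads of the members in B cells were set beside those of T cell markers, as a measure of T cell RNA in the B cell libraries. Among 13 T cell markers, Cd3e had no read in B cells with sgRNA1, none with sgRNA2 and 3 in mock, and Trac, which encodes the constant region of the T cell receptor alpha chain, had 17, 11 and 7 reads in those libraries. Mock B cells held 0.0307% of the mock T cell level at the median marker, and B cells with sgRNA1 held 0.0291% of that in T cells with sgRNA1. The highest marker was Lck, which had 5.85% with sgRNA1 and 5.75% in mock. The members stood at 21.8% and 19.8% for Tnfrsf18, 13.6% and 12.2% for Tnfrsf4, 3.91% and 3.44% for Il2ra, 2.09% and 3.13% for Ctla4, 1.61% and 1.33% for Izumo1r and 1.496% and 2.09% for Lrrc32, with sgRNA1 first and mock second. Foxp3 stood at 0.752% with sgRNA1 and 0.152% in mock, and Ikzf2 at 0.0638% with sgRNA1. All 8 members with sgRNA1, and all but Ikzf2 in mock, were above the median marker, and only Tnfrsf18 and Tnfrsf4 were above Lck. Lck stood apart from the other markers, of which Lat was the highest, at 0.370% with sgRNA1 and 0.330% in mock. All members but Ikzf2 with sgRNA1, and all but Foxp3 and Ikzf2 in mock, were above Lat. The part of T cell RNA in the B cell values was not tested.

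**Figure D3:**
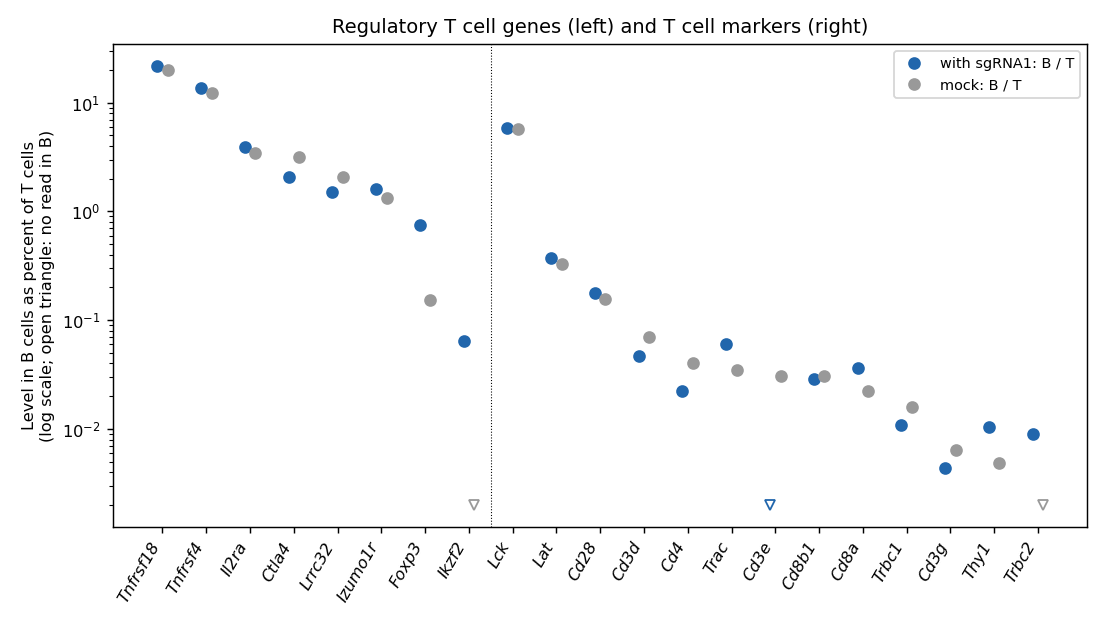
Level in B cells as a percent of the level in T cells, on a log scale, for the 8 genes and for 13 T cell markers, each with sgRNA1 and in mock. Tnfrsf18 and Tnfrsf4 are above 10%, Foxp3 lies at 0.752% with sgRNA1 and 0.152% in mock, and Ikzf2 lies at 0.0638% with sgRNA1, where Trac is at 0.0600%.

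The same cell type test was applied to the related lists. Of the 30 other genes high in regulatory T cells, 23 were called higher in T cells and 6 lower, where 32.4% of 17581 genes were called higher and 31.8% lower. Of 13 genes low in regulatory T cells, 11 were also called higher and 2 lower. The interleukin-2 receptor pathway had 12 of 14 higher and 1 lower, the activators and cofactors of Foxp3 11 of 25 higher and 5 lower, and TGF-beta signalling 9 of 14 higher and 4 lower. CD28 and CTLA-4 costimulation had 5 of 11 higher and 4 lower, and the ligands and adaptors of OX40 and GITR had 2 of 12 higher and 9 lower. Gpr83, a receptor gene, was at 49.7 CPM in T cells with sgRNA1 and 52.2 CPM in mock T cells, against 0.0207 CPM in B cells with sgRNA1 and 0.0296 CPM in mock B cells. Swap70, at 14.98 and 15.7 CPM in those T cell libraries against 772 and 772 CPM in those B cell libraries, and Cd83, at 14.7 and 13.6 CPM against 345 and 359.8 CPM, were lower in T cells, as were Ccr6, Ebi3, Entpd1 and Capg. Il2rb, the beta chain of the interleukin-2 receptor, was at 324 and 328 CPM in T cells against 3.18 and 2.22 CPM in B cells. Cd86, a ligand of CTLA-4, was at 12.05 and 11.5 CPM against 45.0 and 43.7 CPM. Tnfsf18, the ligand of GITR, had no read in T cells with sgRNA1 and was at 0.0139 CPM in mock T cells, against 0.851 and 0.709 CPM in B cells. These genes were named for their place in the pathway after their values were seen.

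B cells with each guide were compared with mock B cells, and both comparisons share the single mock library. Only Ctla4 and Tnfrsf18 reached 5 CPM, Ctla4 through its mock level alone. Neither was 1.5-fold apart, where 0.735% of 10062 genes were with sgRNA1 and 0.278% of 10061 with sgRNA2. Ctla4 was lower with sgRNA1 at -0.52 [-0.95 to -0.08] on the log2 scale, and with sgRNA2 its value was -0.43 [-0.94 to 0.06]. Tnfrsf18 stood at 0.10 [-0.29 to 0.51] with sgRNA1 and 0.25 [-0.19 to 0.69] with sgRNA2.

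Below 5 CPM, Foxp3 had the largest ratios among the 5 members with reads in all B cell libraries. How many of all genes at such low levels differed as much was not counted. Its 33 reads with sgRNA1 and 27 with sgRNA2 against 5 in mock gave ratios of 4.63 [1.15 to 21.2] and 6.50 [1.57 to 30.5]. In the same libraries the T cell marker Trac was at 0.353 CPM with sgRNA1, 0.391 CPM with sgRNA2 and 0.207 CPM in mock, and Cd4 was at 0.145, 0.0356 and 0.266 CPM. Lck alone was at 45.2 CPM with sgRNA1, 46.8 CPM with sgRNA2 and 46.1 CPM in mock, and the other 12 T cell markers summed to 3.42, 3.31 and 3.22 CPM in those libraries. The part of T cell RNA in the Foxp3 difference was not tested. The other members had intervals that include 0 in both comparisons, except that Ikzf2 had no read in mock and is given no fold.

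Over both cell types, the effect of a guide was tested with edgeR's quasi-likelihood test over the 5 libraries and cell type as a term. This test counted sgRNA1 and sgRNA2 as the same condition and assumed the same guide effect in T and B cells. None of the 8 genes passed, with log2 fold changes of -0.12 to 0.06, adjusted p of 0.9996 and unadjusted p of 0.238 to 0.897. With either T cell library left out, the guide term rests on the B cell libraries alone. With mock B cells left out, it rests on the T cell libraries alone. The values from such fits are therefore those of separate comparisons. Without mock T cells, Foxp3 was at 2.39 and Ikzf2 at 5.02 in edgeR. Without T cells with sgRNA1 they were at 2.40 and 5.30, and neither gene passed adjustment in these fits. The Ikzf2 values rest on 5 reads with sgRNA1, 3 with sgRNA2 and none in mock B cells, so their size is not read as a fold. Without mock B cells Foxp3 was at -0.09 in edgeR. Over all 5 libraries, DESeq2 gave 1.15 for both Foxp3 and Ikzf2 with an adjusted p of 0.9999. In edgeR the same model gave 0.02 for Foxp3 and 0.04 for Ikzf2. Ctla4, at -0.07 over all libraries, was at -0.48 without either T cell library, with adjusted p of 0.605 and 0.899 in edgeR. Of 17581 genes 5 were called, or 0.0284%, of which Pou2f1, H2-Q10 and Srp54b are named here after their values were seen, with Tent2-ps1 and Malat1. At an unadjusted p under 0.05 there were 427, and DESeq2 called 4 genes, none of them a member. A further test asked whether the guide effect differed between the cell types. Its spread came only from the difference between the guides in B cells, shared across genes, and not from replicates. Like the other tests across libraries, it took the reads undivided, while the intervals were computed on reads divided by 2. The difference of the guide effect between T and B cells was -2.49 for Foxp3, with an unadjusted p of 0.000167 and an adjusted p of 0.488 in edgeR's quasi-likelihood test, and no member passed, where 0.0171% of 17581 genes did.

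Genes whose levels over the libraries were most like those of Foxp3 were sought among 9897 others at 5 CPM or more in mock T cells, by the root mean square difference of log2 levels relative to mock T cells over the other 4 libraries. The nearest were Sytl2 (0.35), 5830468F06Rik (0.37), Fasl (0.56), Gprc5b (0.56) and Tnfsf14 (0.68). Sytl2 was at 39.1 CPM in T cells with sgRNA1 and 41.4 CPM in mock T cells, against 0.249 CPM with sgRNA1, 0.462 CPM with sgRNA2 and 0.0887 CPM in mock B cells. Among the members, Izumo1r was nearest at rank 166 and Tnfrsf18 the furthest at rank 691. The measure follows the few reads in B cells, so these ranks rest on single-digit counts for Foxp3 in mock B cells.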

How the data were processed

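The deposited values are raw counts of reads by gene, made by the authors, in 10 columns, 2 in each of 5 groups. HISAT2 and featureCounts and the builds mm39 and hg38 are named, per the submitters' processing notes. The labels give no tool version, annotation release or strand setting. In every group, 100% of genes matched 1 count divided in a fixed proportion to within 1 read, and the mean chi-square per gene was 0.00229 to 0.00283, so both columns were summed. All 10 columns were assigned to samples by their names.

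Genes whose exon bases are all shared with a gene of the same strand (945 genes) or only of the opposite strand (449 genes) have no read in any column, whereas 19662 of 44132 genes with no shared base have reads. Levels per kilobase therefore use unshared exon bases, a choice made after seeing the data.

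CPM were scaled by TMM (edgeR 4.0.16, R 4.3.3). Log2 fold changes used a prior of 1 read. Exact intervals were computed on reads divided by 2, since 72.0% to 74.8% of low totals were even after 1 read was added back. The tests across libraries took the reads undivided, so their p-values and the intervals rest on different counts. A gene was called between 2 libraries at 1.5-fold or more and 5 CPM or more in the higher one. Against a group without reads, a floor of 3 reads per library was used. The tests across libraries were edgeR's quasi-likelihood test over 5 summed libraries with cell type and guide as terms, Benjamini-Hochberg adjusted at 0.05, and DESeq2 1.42.0 as an alternative. The difference of guide effects between cell types was added after seeing the data, with 1 residual degree of freedom. That degree of freedom is the difference between sgRNA1 and sgRNA2 in B cells. Only the cell type term was tested on simulated data. It called 81% of 100 genes changed 1.5-fold, 100% of 100 changed 4-fold and 0.0357% of unchanged genes. The simulated libraries were independent, and both cell types had the same levels except at the changed genes, which were drawn from genes with more reads. The real libraries differ in far more genes, so these rates need not hold for them. The guide term and the difference of guide effects were not simulated.

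The members and gene lists were chosen with earlier results of these data known. In the guide comparison of T cells, genes of a list were picked for naming if past 1.5-fold. With none, the 2 with the largest absolute fold change and the 2 with the highest level were picked. Not all genes so picked are named. Ifng, Icosl, Pik3cd and Top2a were among the furthest apart of their lists and are left out. Some lists, such as the Ikaros family, are not described. Promoters came from RefSeq on GRCm38.p6. Alternatives were other scaling, priors, filters, single columns and leaving out each library.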

Additional observations from a re-analysis of the deposited data

Results flagged for a closer look

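For 4 genes the difference between guide and mock had one sign in T cells and the other with both guides in B cells. Both guide libraries of B cells are set against the same mock library. How many of all genes show this pattern was not counted, so the count of 4 is not read as a result about the members. Foxp3 was at -0.10 on the log2 scale in T cells, 1.99 in B cells with sgRNA1 and 2.49 in B cells with sgRNA2. The difference between the cell types was -2.49, with an adjusted p of 0.488 in edgeR's quasi-likelihood test. It rests on 33 and 27 reads with the guides and 5 in mock B cells. Ctla4 was at 0.067 in T cells, -0.52 in B cells with sgRNA1 and -0.43 in B cells with sgRNA2, a difference of 0.55 with an unadjusted p of 0.00438 that did not pass adjustment in edgeR. Tnfrsf18 was at -0.036 in T cells, 0.10 in B cells with sgRNA1 and 0.25 in B cells with sgRNA2, and the difference of -0.20 did not pass in edgeR (unadjusted p of 0.356). Izumo1r was at -0.10 in T cells, 0.17 in B cells with sgRNA1 and 0.39 in B cells with sgRNA2, and the difference of -0.37 did not pass in edgeR (unadjusted p of 0.123).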

How the results depend on the processing

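Of 408 values of the 8 genes under the alternatives, 395 kept their direction and side of the threshold or, where untested, stayed within their interval, and 13 did not. The 395 include 40 values without replicate 1 and 40 without replicate 2. Those were bound to hold, since the columns of a group are 1 library divided in a fixed proportion. Of the 13, 8 changed sign in the guide term, where no member was called. Foxp3 (0.02 over all libraries) was at -0.093 without mock B cells and -0.047 without B cells with sgRNA1. Ctla4 (-0.07) was at 0.069 and 0.011 without the same libraries. Tnfrsf18 (0.05) was at -0.035 without mock B cells. Izumo1r (-0.04) was at 0.271 without mock T cells, 0.270 without T cells with sgRNA1 and 0.021 in DESeq2. Without mock B cells the guide term rests on the T cell libraries alone. With either T cell library left out, it rests on the B cell libraries alone, so such values are those of another comparison. Without a filter on low counts, the Foxp3 difference between cell types was -2.49 with an adjusted p of 0.00497 in edgeR, against 0.488 with the filter and 0.274 with RLE factors, and 37 genes were called in place of 3. These fits took the reads undivided as well. Over full exon length, Foxp3 was at 19.9 CPM per kilobase in T cells with sgRNA1 and 21.2 in mock, and Tnfrsf18 at 17.2 and 17.7. With a filter of 1 CPM and with none, the genes past 1.5-fold numbered 282 and 6560 for T cells with sgRNA1 against mock (11 at 5 CPM), 6535 and 15378 for T against B cells with sgRNA1 (4290), 6091 and 13517 for T against B cells in mock (3997), 565 and 6220 for B cells with sgRNA1 against mock (74), and 507 and 7124 for B cells with sgRNA2 against mock (28); more genes with few reads enter by construction. The guide term called 5 genes, 32 without a filter, and 3 to 18 when a library was left out: 8 without mock T cells, 3 without T cells with sgRNA1, 18 without B cells with sgRNA1, 14 without B cells with sgRNA2 and 4 without mock B cells. The cause of these changes in the number of genes was not tested. The call of T against B cells held 8687 to 11377 genes when a library was left out. No paired analysis was possible because the columns of a group are 1 library divided. A level of 3 reads is 0.0751 CPM in T cells with sgRNA1, 0.0416 CPM in mock T cells and 0.0622 to 0.107 CPM in B cells, where Ikzf2 and, in mock, Foxp3 had 5 reads or fewer.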

Other observations

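Ccdc22, a neighbour of Foxp3 that encodes a protein of endosomal sorting, had no read in any library. Its exon bases are shared with other genes over 92.6% of their length, including 590 bases shared with Foxp3.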
